A study of Mus musculus with 8 samples.

Results

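The S100a8, Fcer1g and Il1b set described here held 69 array probes, of 14942 in the authors' processed table, for 54 named genes. In wild-type (WT) thymus these probes read higher in Foxp3+ than in Foxp3- CD4 cells. In Foxp3+ cells of mice deleted for E2A and HEB (KO) they read lower than in WT Foxp3+ cells, while the Foxp3- cells of both genotypes read about alike. The probes were chosen by these 3 differences, on group means of the authors' processed log2 values. The difference D, WT Foxp3+ minus WT Foxp3-, had to be at least 0.75. The difference A, KO minus WT in Foxp3- cells, had to be under 0.5 in size. The difference B, KO minus WT in Foxp3+ cells, had to be at most -0.5. No p-value is therefore given for a member in these contrasts, and the counts of called members below are descriptions.

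RNA was hybridised to 8 Illumina bead arrays, 2 for each of 4 groups of sorted mouse thymocytes. The WT groups came from WT Foxp3KI mice, and the KO groups from E2Af/fHEBf/f/ER-Cre/Foxp3KI mice, so every group carried the Foxp3KI allele. Tamoxifen, which switches on ER-Cre, was fed to WT or floxed animals in 4 doses of 3 mg per mouse within 10 days. The 2 sorts were CD4+Foxp3+ and CD4SPFoxp3-, the latter being CD4 single-positive cells without Foxp3. The labels name no cell type to which ER-Cre is limited, give no age, and do not say whether replicates are separate mice. The p-values therefore measure the spread between these samples, which may be technical.

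Foxp3 is the transcription factor that defines regulatory T cells, which restrain other immune cells and mature in the thymus. E2A and HEB, encoded by Tcf3 and Tcf12, are E proteins, which bind the short DNA motif called an E-box and steer T cell development at many stages. Most of the member genes with the lowest B are known for another role. They encode granule proteins, receptors and mediators that neutrophils, monocytes and macrophages make in quantity.

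The members were therefore set against lists of marker genes before any other result. Of 8 measured genes on the regulatory T cell list 0 were members, and of 12 fitted probes 0 were called lower or higher in KO Foxp3+ cells with limma (at an unadjusted p under 0.05, 2 higher and 0 lower). On the myeloid and dendritic list, 4 of 8 measured genes (50.0%) were members, namely Cst3, Fcer1g, Lyz2 and Tyrobp, against 0.538% of the 10033 genes with a named probe. Longer lists of regulatory T cell identity and of effector and recirculating regulatory T cells held 1 of 23 (4.35%) and 2 of 27 (7.41%). Membership also asks for a high D, so none of these shares measures the loss in KO alone. With 0.538% of all named genes as members, 0 of 8 marker genes says little by itself. The set is called here by its rule and leading genes.

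The marker sums here and below add background-corrected intensities that were not normalized between arrays, so they also carry the brightness of each array. Mean uncorrected intensity was 372 and 427 on WT Foxp3+ and 386 and 359 on KO Foxp3+. On WT Foxp3- it was 433 and 403, and on KO Foxp3- 395 and 404. Summed over its 13 probes, the background-corrected intensity of the myeloid and dendritic list was 16006 and 20674 on the WT Foxp3+ arrays. It was 10309 and 6925 on the KO Foxp3+ arrays, from 2430 to 2737 on WT Foxp3- and from 2729 to 2810 on KO Foxp3-. The KO Foxp3+ arrays thus lay between WT Foxp3+ and both Foxp3- groups, an order that the 5 member probes of this list, chosen by the rule, fix in part. Over the 8 probes that are no members, the sums were 10259 and 12806 on WT Foxp3+ and 7637 and 4385 on KO Foxp3+. They were 1003 and 872 on WT Foxp3- and 1167 and 1204 on KO Foxp3-, in the same order. These sums rest mostly on Lyz1 and Cd74, the brightest of these probes. Lyz1 read 12.52 and 12.62 on WT Foxp3+ and 11.12 and 11.10 on KO Foxp3+, and may share signal with the Lyz2 members. The brighter Cd74 probe read 11.38 and 11.40 on WT Foxp3+ against 11.45 and 10.39 on KO Foxp3+. Replicate 1 of KO Foxp3+ was thus not below WT for Cd74. The order is therefore no check independent of the rule. Of the 13 probes, 12 and 12 were detected on the WT Foxp3+ arrays, 12 and 10 on KO Foxp3+, 6 and 6 on WT Foxp3-, and 7 and 7 on KO Foxp3-. A probe is called detected here at a detection p under 0.05 on that array. Cd14 had a log2 level of 6.33 and 6.18 on WT Foxp3+ and 4.70 and 5.26 on KO Foxp3+. Ly86 read 7.44 and 7.78 against 6.84 and 6.88. The dimmer Lyz1 probes overlapped between the genotypes in Foxp3+ cells. The Cd14 and Ly86 probes, both of myeloid markers that are no members, were detected on no Foxp3- array. The part of such cells in the results below was not tested, and in bulk RNA fewer cells of a type cannot be told apart from less RNA per cell.

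The regulatory T cell list summed to 26249 and 28414 on WT Foxp3+, to 27022 and 24481 on KO Foxp3+, and to between 5754 and 6156 on the 4 Foxp3- arrays. Its sums, not normalized, thus overlapped between the genotypes in the sorted Foxp3+ cells. B cell markers, with 9 probes, summed to 840 and 1034 on WT Foxp3+, to 1445 and 683 on KO Foxp3+, and to between 236 and 329 on the Foxp3- arrays. Both erythroid markers, Hba-a1 and Alas2, summed to 4151 and 5191 on WT Foxp3+, 5888 and 7802 on KO Foxp3+, 270 and 193 on WT Foxp3- and 2245 and 2000 on KO Foxp3-. Neither list had a member.

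**Figure D1:**
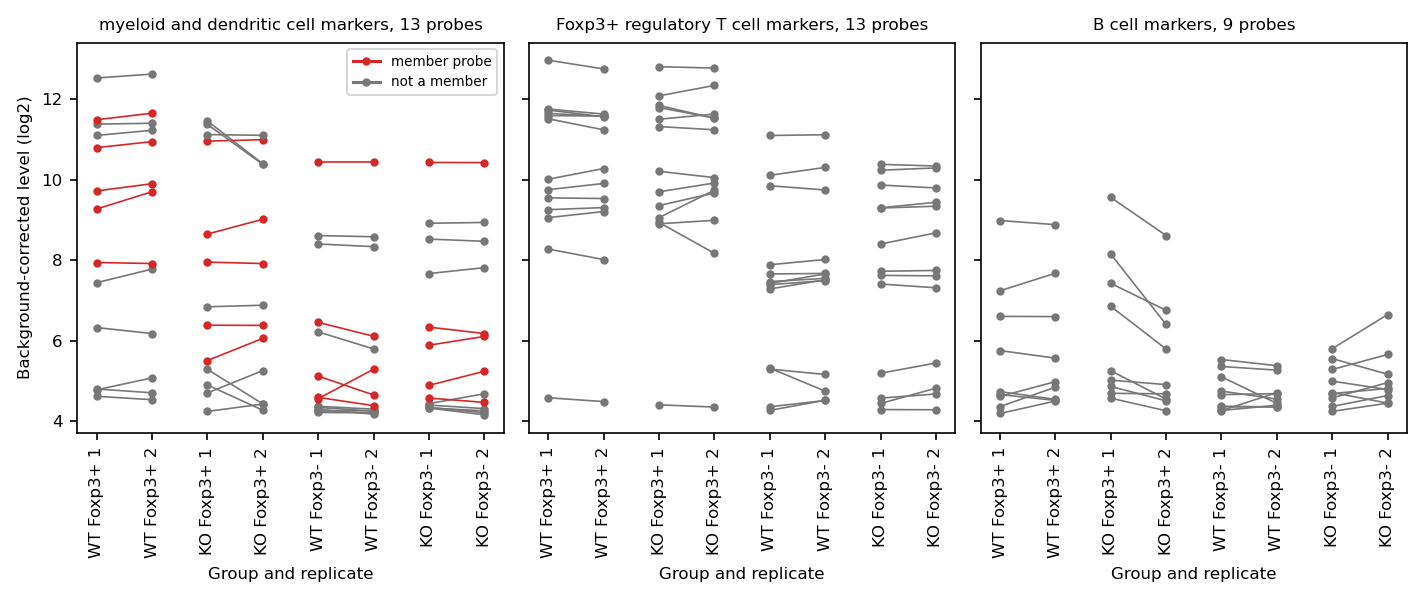
Background-corrected log2 level (vertical axis) of every probe of 3 marker lists on each of the 8 arrays (horizontal axis); lines join the replicates of a group, and member probes are red. The myeloid and dendritic panel holds member probes that read lower on both KO Foxp3+ arrays than on both WT Foxp3+ arrays, while the regulatory T cell panel has 0 members.

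The deletion was checked on Tcf12 (HEB), whose probe had a log2 level of 7.29 and 7.48 on WT Foxp3+, 6.44 and 6.22 on KO Foxp3+, 7.67 and 7.57 on WT Foxp3- and 6.86 and 6.75 on KO Foxp3-. It was lower in KO in both fractions, by a log2 difference of -1.06 ± 0.13 (SE) in Foxp3+ cells and -0.81 ± 0.13 in Foxp3- cells, each with a limma adjusted p of 0.004. Where this probe lies relative to the deleted part is not given in the sources used here, and Tcf3 (E2A) was not analysed here. The Foxp3 probe that gave a signal read 9.75 and 9.90 on WT Foxp3+ and 9.06 and 9.74 on KO Foxp3+, and was not detected on the Foxp3- arrays. Its KO minus WT log2 difference of -0.43 ± 0.21 (SE) in Foxp3+ cells did not pass the test (limma adjusted p = 0.295). Each array detected 11462 to 12540 probes.

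On the authors' processed log2 scale, the members' D ran from 0.75 to 5.36 with a median of 1.45. Their A ran from -0.28 to 0.46, and their B from -3.09 to -0.50 with a median of -0.86. Of 493 probes that met the limit on D, 297 also met that on A, and 69 of these (23.2%) met that on B. The other 224 probes with D and A inside and B under 0.5 in size are called the kept probes below. Napsa and Ccnd1 lay just inside the limit on B, at -0.504 and -0.501, and Slc11a1 and Rnase6 just outside it, at -0.496 and -0.492. Cxcr2 and Trem3 were just inside the limit on D, at 0.751 and 0.762, while the unnamed probe ILMN_2920849 and a Csf3r probe fell short at 0.740 and 0.743. For A, H2-Ab1 and Lyz2 were inside at 0.433 and 0.462, with Tha1 and H2-Eb1 outside at 0.502 and 0.516.

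**Figure D2:**
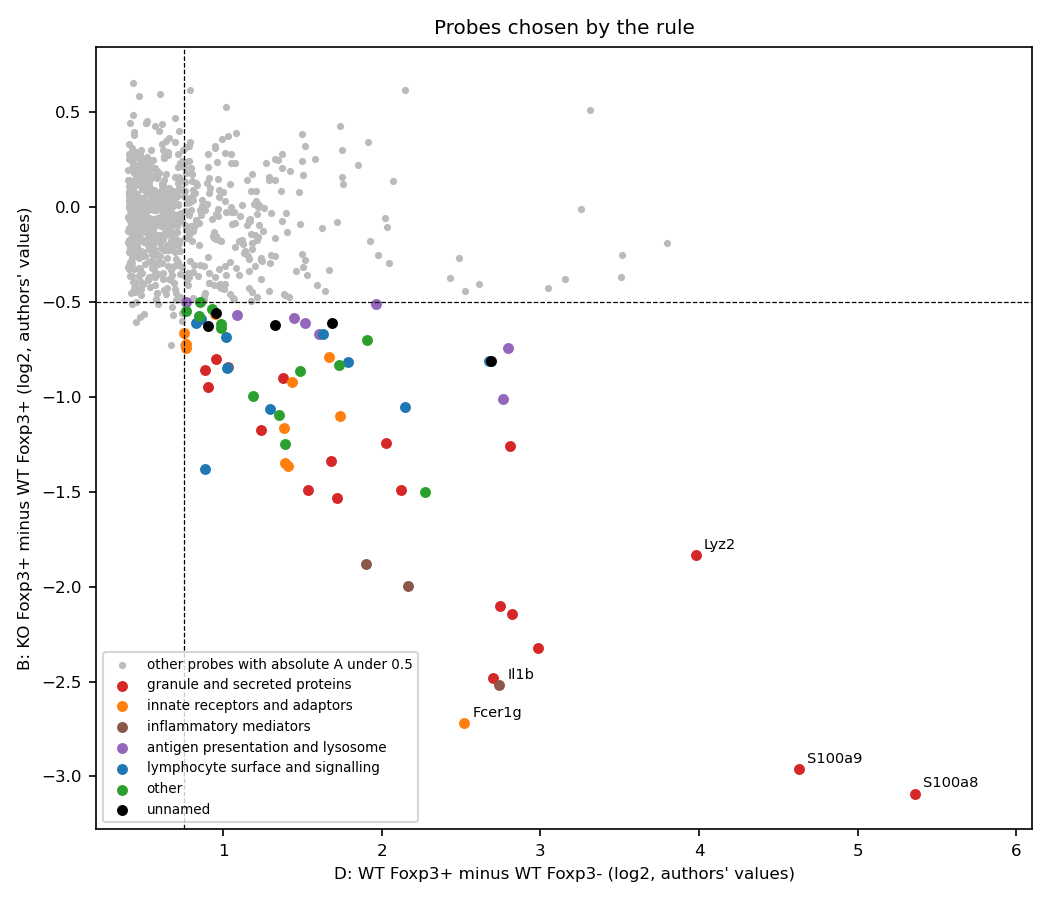
Difference B (vertical axis) against difference D (horizontal axis), both in log2 units of the authors' processed values, for probes with A under 0.5 in size and D above the left edge of the plot; dashed lines mark the limits of 0.75 and -0.5, and colours mark the role of each member. S100a8, with D of 5.36, and S100a9 stand furthest to the lower right.

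Levels from here on are background-corrected, normalized log2 values from all 25697 probes of the intensity table, unless the authors' values are named. All 69 members were among the 13526 probes fitted with limma, 5 of them only because the WT Foxp3+ arrays detected them. The median member level was 8.08 in WT Foxp3+, 6.33 in KO Foxp3+, 4.53 in WT Foxp3- and 4.55 in KO Foxp3-. All 69 were detected on both WT Foxp3+ arrays. In KO Foxp3+ cells 56 were detected on both arrays, 7 on 1 array and 6 on neither. In Foxp3- cells 34 of the 69 were detected on no array of either genotype, compared with 29 of the 224 kept probes.

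Called at a limma adjusted p under 0.05, 61 of the 69 members were lower in KO than in WT Foxp3+ cells, where 2.39% of all fitted probes were. All 69 were called higher in WT Foxp3+ than in WT Foxp3- cells (background 14.6%). All 69 also had both KO Foxp3+ arrays below both WT Foxp3+ arrays (background 23.0%). The rule favoured high values of these 3 counts without fixing them, and nothing is read from them. The median log2 difference between KO and WT Foxp3+ cells was -1.76 over the members, -0.11 over the kept probes and 0.01 over all fitted probes.

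In Foxp3- cells 6 members were called higher in KO and 3 lower (background 10.3% and 10.8%, or 21.2% in either direction), although the rule had asked for a small difference there. After background correction 10 members had a difference of 0.5 or more in size. Lyz2, the lysozyme of phagocytes, had the largest of these, at 1.37 for the brighter of its member probes. Both H2-Ab1 probes that were called stood 0.89 and 1.09 higher in KO Foxp3- cells on the log2 scale, Cxcr5 0.84 and Irf8 0.68. Alox5ap, the protein that feeds arachidonic acid to leukotriene synthesis, was lower there by a log2 difference of -0.88.

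S100a8 and S100a9, the paired subunits of the calcium-binding protein calprotectin, led the set, and no protein-coding gene lies between them in the RefSeq annotation of chromosome 3. Il1b had the lowest KO minus WT difference after background correction, and Ecm1 was the only member on the fixed list of regulatory T cell identity genes. Their sequences just upstream of the gene start are shown for these reasons, as 250 bases 5′ to 3′ on the gene's strand, from RefSeq on build GRCm38.p6, with every E-box (CANNTG) in capitals. The windows are chr3:90668821-90669070, plus strand, chr3:90695722-90695971, minus strand, chr2:129371140-129371389, minus strand and chr3:95739570-95739819, minus strand.
S100a8: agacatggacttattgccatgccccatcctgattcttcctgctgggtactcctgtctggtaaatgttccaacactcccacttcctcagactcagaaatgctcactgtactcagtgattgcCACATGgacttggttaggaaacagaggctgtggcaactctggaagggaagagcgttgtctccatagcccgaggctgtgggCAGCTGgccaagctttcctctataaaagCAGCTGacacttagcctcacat
S100a9: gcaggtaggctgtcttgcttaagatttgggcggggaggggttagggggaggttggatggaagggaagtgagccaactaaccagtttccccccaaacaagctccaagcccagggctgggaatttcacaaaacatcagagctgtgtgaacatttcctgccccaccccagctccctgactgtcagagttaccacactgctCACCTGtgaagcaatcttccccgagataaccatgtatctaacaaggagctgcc
Il1b: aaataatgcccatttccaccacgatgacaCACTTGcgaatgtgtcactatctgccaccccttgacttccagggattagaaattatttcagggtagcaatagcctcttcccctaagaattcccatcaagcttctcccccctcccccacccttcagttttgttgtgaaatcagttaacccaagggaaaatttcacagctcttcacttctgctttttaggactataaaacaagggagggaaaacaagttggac
Ecm1: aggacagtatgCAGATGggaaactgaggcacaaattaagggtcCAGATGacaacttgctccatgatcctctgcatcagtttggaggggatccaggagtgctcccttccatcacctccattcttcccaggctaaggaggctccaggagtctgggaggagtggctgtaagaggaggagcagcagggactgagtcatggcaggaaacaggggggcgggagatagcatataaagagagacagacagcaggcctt

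The S100a8 window held 3 E-boxes, of which 2 were CAGCTG, while S100a9 and Il1b held 1 each and Ecm1 held 2. The promoter table held 38 of the 54 member genes, searched from 250 bases before to 50 after the start and on both strands. At least 1 CANNTG was found for 31 of the 38 (81.6%), against 69.3% of all 27025 genes in that table and 71.0% of the genes of the kept probes. CAGGTG and CAGCTG, which CANNTG includes, were found for 10 (26.3%) and 5 (13.2%), against 19.4% and 14.7% of all genes. Among the genes of the kept probes the shares were 23.4% and 18.6%. TTCNNNGAA, the letters of a STAT site, was found for 7 (18.4%, against 8.13%), and TGTTTAC, a forkhead site, for 1 (2.63%, against 3.54%). A match is a description of these windows and says nothing of binding.

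Granule and secreted proteins made up 18 probes of 13 genes. All 18 were called lower in KO than in WT Foxp3+ cells (background 2.39%), with a median log2 difference of -2.66. Of these, 13 were still called higher in KO Foxp3+ than in KO Foxp3- cells (background 12.1%). Here and in the role groups below, the rule chose every probe on the first difference and set the second in part. Such counts are therefore descriptions and no result about a role. S100a8 had a log2 level of 12.83 and 12.97 on WT Foxp3+, 9.93 and 9.41 on KO Foxp3+, 6.84 and 6.23 on WT Foxp3- and 6.20 and 6.27 on KO Foxp3-. S100a9 read 11.66 and 11.61, 8.87 and 7.79, 5.29 and 5.17, and 4.86 and 4.98 on the same groups in that order. For both genes the 3 levels, WT Foxp3+, KO Foxp3+ and the pooled Foxp3- arrays, did not overlap. The gap between the genotypes in Foxp3+ cells held for all 69 members (background 23.0%) and was favoured by the rule. S100a8 was 9.39-fold lower in KO Foxp3+ than in WT Foxp3+ cells (log2 difference -3.23 ± 0.23, SE) and S100a9 9.92-fold lower (-3.31 ± 0.29). Both remained over the KO Foxp3- cells, by 3.44 ± 0.23 and 3.41 ± 0.29 on the log2 scale.

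Retnlg, a resistin-like protein, had a log2 level of 9.23 and 9.34 on WT Foxp3+ and 5.60 and 4.47 on KO Foxp3+, where replicate 2 did not detect it. No Foxp3- array detected it. Its mean, the undetected array included, was 19.0-fold lower in KO than in WT Foxp3+ cells, and the KO replicates lay further apart (1.13) than those of WT. Lcn2, which binds bacterial siderophores, read 9.59 and 9.70 on WT Foxp3+ and 6.70 and 6.02 on KO Foxp3+, a 9.69-fold lower level, and was detected on no Foxp3- array. WT Foxp3+ cells exceeded WT Foxp3- cells at least 29.9-fold for Lcn2 and at least 23.3-fold for Retnlg; such bounds take the dim arrays at the lowest detected signal or the probe's own, whichever is higher.

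Chil3, a chitinase-like lectin, had 3 member probes, 8.29-, 8.29- and 3.82-fold lower in KO Foxp3+ cells, all undetected on the Foxp3- arrays. The brightest probe for Lyz2 read 10.79 and 10.94 on WT Foxp3+, 8.65 and 9.02 on KO Foxp3+, 5.12 and 4.65 on WT Foxp3- and 6.34 and 6.18 on KO Foxp3-. It was 4.10-fold lower in KO Foxp3+ cells and the other Lyz2 member probe 2.93-fold. Lyz1, its near-identical neighbour and no member, read 12.52 and 12.62 on WT Foxp3+ and 11.12 and 11.10 on KO Foxp3+, so that signal may be shared between both genes.

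Camp, Ngp and Ltf encode the cathelicidin, neutrophilic granule protein and lactoferrin of secondary granules, and lie near each other on chromosome 9. Camp read 8.88 and 8.77 on WT Foxp3+, 6.89 and 6.39 on KO Foxp3+, 5.05 and 4.87 on WT Foxp3- and 4.37 and 4.46 on KO Foxp3-. Ngp read 8.20 and 8.09 on WT Foxp3+ and 5.72 and 5.81 on KO Foxp3+, and Ltf 8.79 and 8.40 against 7.18 and 6.29. These 3 genes were 4.55-, 5.21- and 3.63-fold lower in KO Foxp3+ cells, and all stayed above the KO Foxp3- arrays.

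A further subset was no longer detected at all. Haptoglobin (Hp), which binds free haemoglobin, read 7.70 and 7.93 on WT Foxp3+ with its brightest probe and was detected on neither KO Foxp3+ array, a difference of at least 8.79-fold. A second Hp probe gave at least 5.17-fold in the same way, and the other was detected on 1 of the KO Foxp3+ arrays. Chil1, another chitinase-like protein, was at least 6.50-fold lower. Wfdc17, a small secreted protein of the whey acidic protein family, was 3.39-fold lower. The secreted glycoprotein Lrg1 stayed detected at 4.99 on both KO Foxp3+ arrays, 8.53-fold under WT.

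**Figure D3:**
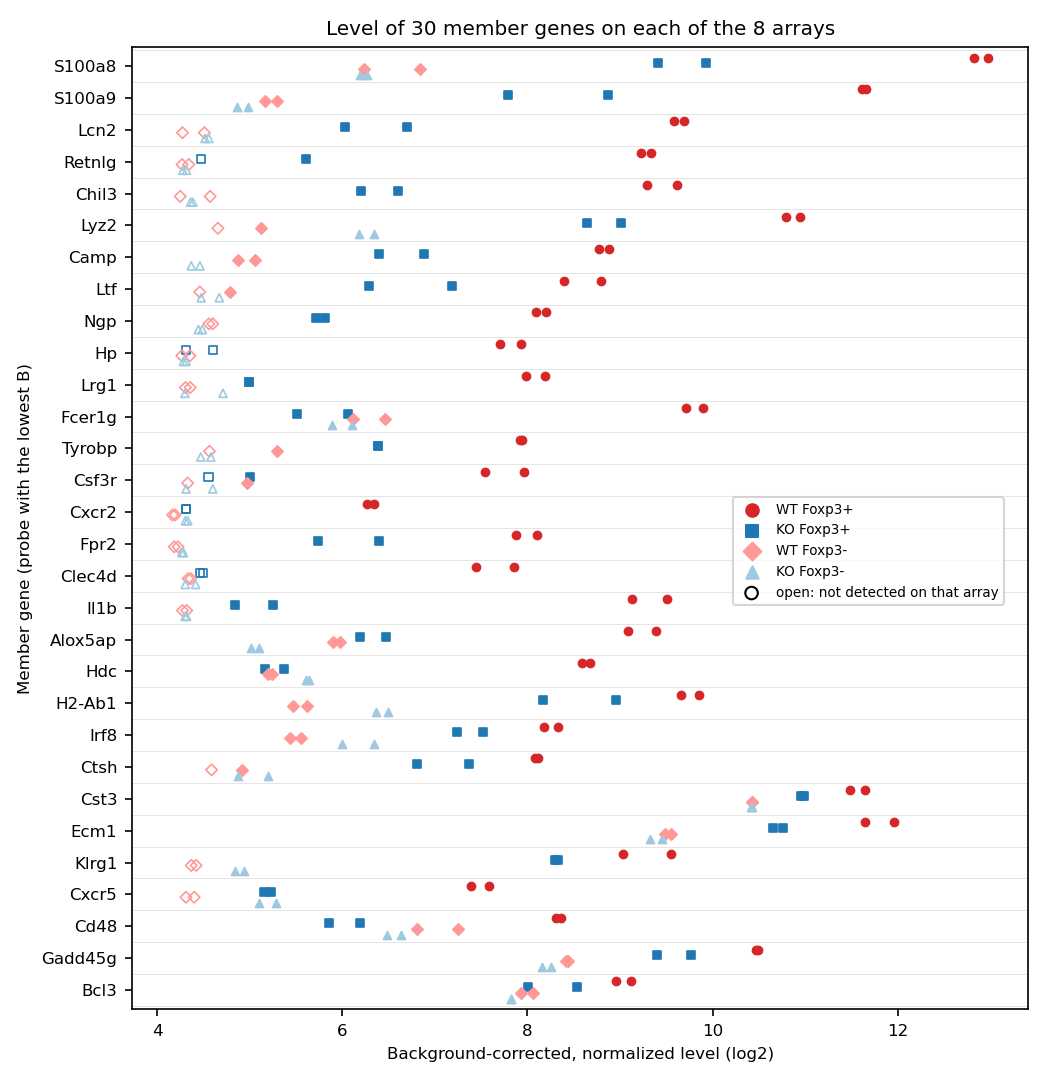
Background-corrected log2 level (horizontal axis) of 30 member genes (vertical axis, the probe with the lowest B each) on each of the 8 arrays, with open symbols where an array did not detect the probe. Both WT Foxp3+ arrays lie to the right of all others in each row, and the KO Foxp3+ arrays range from near the Foxp3- arrays (Fcer1g, Hdc, Cxcr2) to well above them (S100a8, Klrg1).

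Receptors and adaptors of innate cells gave 11 probes of 11 genes. All 11 were called lower in KO Foxp3+ cells (background 2.39%), with a median log2 difference of -2.05. Of these, 5 were called higher in KO Foxp3+ than in KO Foxp3- cells (background 12.1%). Fcer1g, the signalling chain that Fc receptors share, had a log2 level of 9.72 and 9.90 on WT Foxp3+, 5.51 and 6.06 on KO Foxp3+, 6.46 and 6.11 on WT Foxp3- and 5.89 and 6.11 on KO Foxp3-. Its KO Foxp3+ arrays were within or below the range of the Foxp3- arrays, and 16.3-fold under WT Foxp3+. Tyrobp (DAP12), a similar adaptor, read 7.94 and 7.92 on WT Foxp3+ and 6.39 and 6.38 on KO Foxp3+, and no KO Foxp3- array detected it. It was 2.92-fold lower in KO Foxp3+ cells, a call lost in 2 alternative settings, and stayed at least 3.02-fold over KO Foxp3-.

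Csf3r, the receptor for the growth factor G-CSF, read 7.55 and 7.96 on WT Foxp3+ and 4.55 and 5.00 on KO Foxp3+, where only replicate 2 detected it. The lectin receptor Clec4d, the chemokine receptor Cxcr2 and the receptor Mrgpra2b were detected on neither KO Foxp3+ array and were lower by at least 7.84-, 3.08- and 3.79-fold. A second Mrgpra2b probe disagreed: it was detected on all 8 arrays, with D of -0.06 and B of 0.18 on the authors' scale, and its background-corrected KO minus WT log2 difference in Foxp3+ cells was 0.54 ± 0.14 (SE; limma adjusted p = 0.079). Fpr2, a receptor for formylated peptides, read 7.88 and 8.11 on WT Foxp3+ and 5.74 and 6.40 on KO Foxp3+ and was undetected on all Foxp3- arrays. Fcgr4, an activating Fc receptor, was 2.39-fold lower and kept 65.6% of its WT log2 difference between fractions. Trem3, a receptor that signals through Tyrobp, read 6.21 and 6.87 on WT Foxp3+ and 4.68 and 4.30 on KO Foxp3+, where 1 array detected it. Sirpb1a, of the signal-regulatory protein family, was 5.85-fold lower and the lectin Clec4a3 2.32-fold. Sirpb1a, Mrgpra2b and Clec4a3 belong to families of near-identical copies, so their probes may read more than 1 gene.

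The 4 inflammatory mediators were all called lower in KO Foxp3+ cells (background 2.39%). Il1b, which encodes the cytokine interleukin 1 beta, had a log2 level of 9.13 and 9.51 on WT Foxp3+ and 4.84 and 5.25 on KO Foxp3+, and was detected on no Foxp3- array. It was 19.3-fold lower in KO than in WT Foxp3+ cells (log2 difference -4.27 ± 0.17, SE). Hdc, the enzyme that makes histamine, read 8.68 and 8.59 on WT Foxp3+, 5.37 and 5.17 on KO Foxp3+, 5.20 and 5.24 on WT Foxp3- and 5.63 and 5.61 on KO Foxp3-. The KO Foxp3+ arrays lay below both KO Foxp3- arrays, and 10.3-fold below WT Foxp3+. Alox5ap read 9.09 and 9.39 on WT Foxp3+, 6.47 and 6.19 on KO Foxp3+, 5.89 and 5.97 on WT Foxp3- and 5.01 and 5.10 on KO Foxp3-. The chemokine Ccl9 was detected on 1 of the KO Foxp3+ arrays, with log2 levels of 5.57 and 4.40 there against 6.86 and 7.24 in WT.

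Genes of antigen presentation and the lysosome gave 8 probes of 5 genes with smaller differences, a median of -0.94 on the log2 scale. Of these 8 probes, 5 were called lower in KO Foxp3+ cells (background 2.39%). All 8 were called higher in KO Foxp3+ than in KO Foxp3- cells (background 12.1%). H2-Ab1, the beta chain of the class II molecule I-A, had 3 member probes. The probe with the lowest B read 9.66 and 9.85 on WT Foxp3+, 8.95 and 8.17 on KO Foxp3+, 5.46 and 5.61 on WT Foxp3- and 6.50 and 6.36 on KO Foxp3-. This probe was called lower in KO Foxp3+ cells, but lost the call in 8 alternative settings, as did Cst3 in 6, Irf8 in 3 and the dimmer Napsa probe in 2. The other H2-Ab1 member probes, with 9.45 and 8.29 and with 8.53 and 7.46 on KO Foxp3+, were not called. A brighter H2-Ab1 probe that is no member read 10.41 and 10.45 on WT Foxp3+ and 10.06 and 8.93 on KO Foxp3+, also not called. It missed the rule with A of 0.73 on the authors' scale, as it was higher in KO Foxp3- cells.

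Replicate 1 of KO Foxp3+ read higher than replicate 2 for H2-Ab1, and so it did for Napsa, an aspartic protease, at 7.40 against 6.01 with its brighter probe. The summed B cell markers, not normalized, differed the same way between these arrays, at 1445 and 683, but this was not particular to B cells. Double-positive thymocyte markers summed to 2107 and 1015 there, CD8 markers to 2945 and 1263 and NK markers to 2340 and 1068. The erythroid sum went the other way, at 5888 and 7802. The part of any of these cell types in the gap was not tested. Irf8, a transcription factor of dendritic cells and macrophages, read 8.18 and 8.33 on WT Foxp3+, 7.52 and 7.24 on KO Foxp3+, 5.43 and 5.55 on WT Foxp3- and 5.99 and 6.34 on KO Foxp3-. Cathepsin H (Ctsh) read 8.08 and 8.11 on WT Foxp3+ against 7.37 and 6.80 on KO Foxp3+. Cystatin C (Cst3), which inhibits cathepsins, read 11.48 and 11.65 against 10.95 and 10.99, with 10.42 to 10.43 on the Foxp3- arrays. None of these 3 overlapped between the genotypes in Foxp3+ cells, which held for all 69 members (background 23.0%) and was favoured by the rule.

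Lymphocyte surface and signalling genes gave 10 probes of 8 genes, with a median log2 difference of -1.05. Of the 10 probes, 8 were called lower in KO Foxp3+ cells (background 2.39%). Ecm1, a secreted matrix protein, read 11.96 and 11.65 on WT Foxp3+, 10.65 and 10.76 on KO Foxp3+, 9.49 and 9.55 on WT Foxp3- and 9.45 and 9.33 on KO Foxp3-. Its 2 member probes were 2.14- and 2.35-fold lower in KO Foxp3+ cells. They did not overlap with the WT Foxp3+ arrays, which the rule favoured, or with the Foxp3- arrays. The dimmer probe, at 2.35-fold, lost the call in 3 alternative settings. Klrg1, an inhibitory receptor of effector T cells, read 9.04 and 9.56 on WT Foxp3+, 8.30 and 8.33 on KO Foxp3+, and 4.84 and 4.93 on KO Foxp3-. It was undetected on WT Foxp3- and kept 69.8% of its WT log2 difference between fractions. Its call as lower in KO Foxp3+ cells was lost in 3 alternative settings.

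Cxcr5, the chemokine receptor that leads cells to B cell follicles, read 7.39 and 7.58 on WT Foxp3+, 5.23 and 5.15 on KO Foxp3+ and 5.10 and 5.29 on KO Foxp3-, undetected on WT Foxp3-. Its KO groups overlapped at a level between those of the WT groups. The other probes for Cxcr5, which are no members, had D of 2.78 and 2.18, A of 1.50 and 1.11 and B of -0.65 and -0.59 on the authors' scale. They too were lower in KO Foxp3+ cells, but missed the rule because they were higher in KO Foxp3- cells.

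Cd48, an adhesion molecule of the SLAM family on leukocytes, read 8.31 and 8.36 on WT Foxp3+, 5.86 and 6.19 on KO Foxp3+, 6.81 and 7.25 on WT Foxp3- and 6.48 and 6.63 on KO Foxp3-. The KO Foxp3+ arrays were the lowest of all 8. Gadd45g, a stress and growth arrest gene, was 1.86- and 2.24-fold lower with its 2 member probes, and stayed above the Foxp3- arrays with both. These probes lost the call in 3 and 1 alternative settings. Map3k8, a kinase of inflammatory signalling, was 1.73-fold lower. Bcl3, a partner of NF-kB, read 9.12 and 8.96 on WT Foxp3+ and 8.01 and 8.54 on KO Foxp3+, and Lgals3 (galectin 3) 9.66 and 9.82 against 9.37 and 8.10. These last 2 were not called in the fit.

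The remaining 13 named probes had mixed roles, and 11 of them were called lower in KO Foxp3+ cells (background 2.39%). Tgfbi, a matrix protein induced by TGF-beta, read 8.73 and 8.88 on WT Foxp3+ and 6.55 and 6.65 on KO Foxp3+, 4.62-fold lower, with no detection in Foxp3- cells. Ifitm6, of the interferon-induced transmembrane family, was 5.22-fold lower. Gcnt2, a glycosyltransferase, read 7.47 and 7.75 on WT Foxp3+ and 5.06 and 4.54 on KO Foxp3+, and Emilin2, a matrix glycoprotein, 7.30 and 7.26 against 5.32 and 4.56; KO Foxp3+ replicate 2 detected neither. Dnase1l3, a secreted nuclease, was 2.81-fold lower, Nfe2, a transcription factor of megakaryocytes and erythroid cells, 2.71-fold, and Dgat2, which makes triglycerides, 2.69-fold. The cell cycle gene Ccnd1 was 2.26-fold lower, Rln3, a relaxin peptide, 2.25-fold and the adaptor Grb7 1.85-fold. Tgm2, a transglutaminase, was 1.99-fold lower and kept 70.1% of its WT difference between fractions. Rabac1, which acts in vesicle traffic, and the histone variant H2az1 were not called, with log2 differences of -0.57 ± 0.15 and -0.64 ± 0.15 (SE). A second Rabac1 probe disagreed with the member: it had A of -1.25 and B of -1.47 on the authors' scale, lower in KO in both fractions.

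Probes without a gene name numbered 5, of which 4 were called lower in KO Foxp3+ cells (background 2.39%). The brightest of these, ILMN_2722996, read 9.20 and 9.47 on WT Foxp3+, 8.23 and 8.48 on KO Foxp3+, 4.58 and 4.36 on WT Foxp3- and 4.91 and 4.53 on KO Foxp3-. It kept 74.8% of its WT log2 difference between fractions, close to Klrg1. Genes with 2 or more member probes numbered 7, and 11 had further probes outside the set. Of those 13 further probes 6 met the limit on D, 6 met that on B, and 1 was detected on no array.

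How much of the difference between fractions was left in KO varied widely among the members. In KO, 49 of 69 were called higher in Foxp3+ than in Foxp3- cells (background 12.1%), and 56 had both KO Foxp3+ arrays above both KO Foxp3- arrays (background 28.3%). This contrast equals D plus B minus A and is set in part by the rule. Its median was 1.08 over the members and -0.03 over all fitted probes, compared with 3.24 for the same contrast in WT. The KO minus WT difference was called more negative in Foxp3+ than in Foxp3- cells, as an interaction, for 52 members (background 3.53%). The rule favours this too. On the authors' values, without background correction, the KO median was 0.38. Arrays that detected nothing limit it too: with undetected KO Foxp3- arrays at their bound the median was 0.94.

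Sorted by the share of the WT log2 difference that remained, 8 members were at or below 0, 14 lay between 0 and 25%, 22 between 25 and 50%, 23 between 50 and 75%, and 2 above that. The median was 41.0%. Hdc, Fcer1g, Cd48, Cxcr2 and Cxcr5 were among those at or below 0. Lgals3 was too, at -21.7%, but it rested on 1 array: without replicate 2 of KO Foxp3+ its share was 31.3%. Rln3 and Grb7 had the highest shares, 86.6% and 82.5%, with Rln3 set against KO Foxp3- arrays that did not detect it. On the authors' values their shares were 63.2% and 63.5%, below ILMN_2722996 at 67.2% and Klrg1 at 64.6%. Innate receptors had a median of 10.3%, inflammatory mediators 19.0%, granule proteins 37.0%, lymphocyte genes 42.2% and antigen presentation genes 52.6%. The differences between these role groups were not tested, since the members are not replicates.

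**Figure D4:**
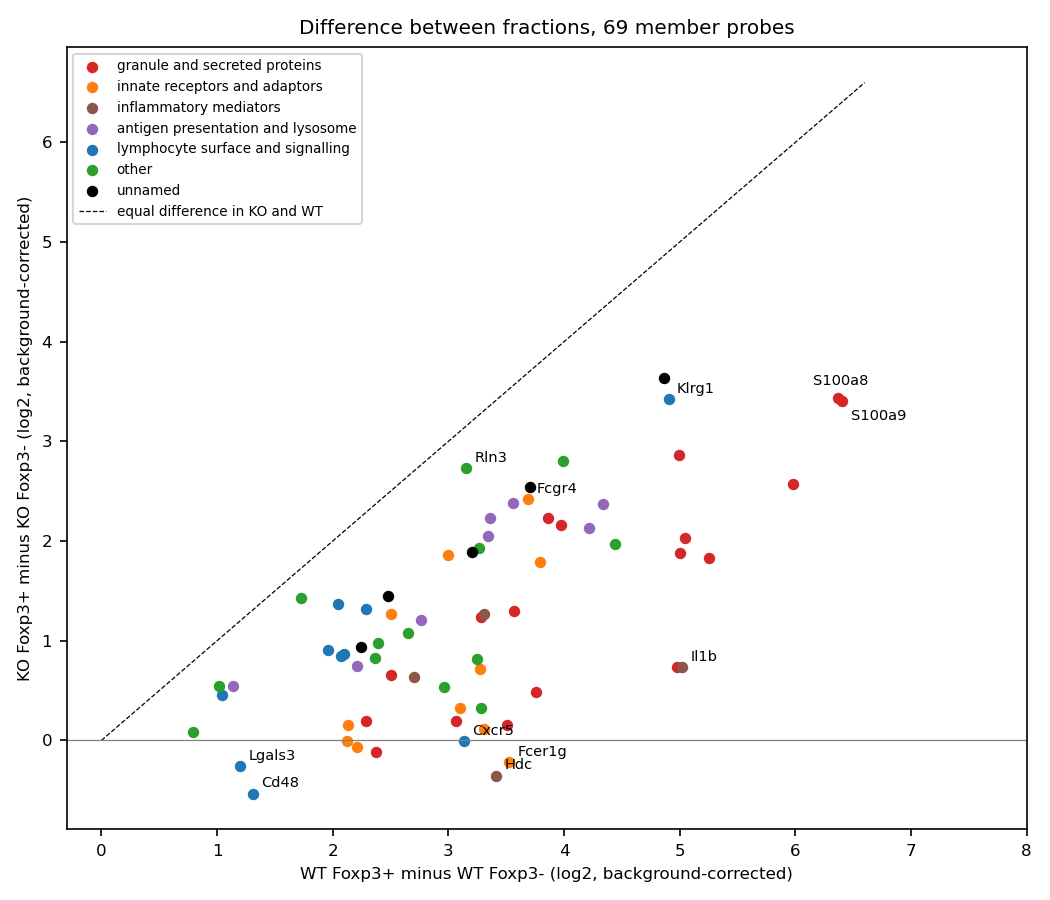
Log2 difference between KO Foxp3+ and KO Foxp3- cells (vertical axis) against the same difference in WT (horizontal axis), background-corrected, for the 69 members coloured by role; the dashed line marks equal differences. All members lie below that line, with S100a8 and S100a9 at 3.44 and 3.41 in KO, and Hdc, Fcer1g and Cd48 below 0.

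Replicates of KO Foxp3+ were further apart than those of WT Foxp3+ over these probes. The median gap between replicates was 0.38 log2 units in KO Foxp3+ and 0.19 in WT Foxp3+ over the members, and 0.18 and 0.13 over all fitted probes. More than 2-fold gaps were found for 7 members in KO Foxp3+ and for 0 in WT Foxp3+. Neither replicate was the higher one throughout, since 32 of the 69 read higher on replicate 1 of KO Foxp3+.

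The other gene lists held few members each, to be read against the 0.538% of all named genes. Of 23 measured genes for regulatory T cell identity, Ecm1 was the only member (4.35%), while 9 were among the kept probes' genes. In the fit, 2 of that list's 41 probes, both of Ecm1, were called lower in KO Foxp3+ cells (background 2.39%). Called higher was 1 (background 1.47%), and the list's median log2 difference was 0.08. The TCR and NF-kB list had 2 member genes of 25 (8%, Bcl3 and Irf8), effector and recirculating regulatory T cells 2 of 27 (7.41%, Klrg1 and Lgals3), chemokine receptors 1 of 21 (4.76%, Cxcr5) and apoptosis 1 of 23 (4.35%, Gadd45g). These shares were above that of all genes, each from 1 or 2 genes. Membership needs a high D, and 38 of the identity list's 41 probes were called higher in WT Foxp3+ than in WT Foxp3- cells (background 14.6%). The share of all genes is thus a low bar for that list. Over all named genes 54 had a member probe and 197 a kept probe, against 1 and 9 on the identity list. The TNF receptor, cytokine receptor, cell cycle and interferon lists had 0 of 26, 0 of 29, 0 of 25 and 0 of 28, and thymocyte maturation, signal attenuators and stress genes 0 of 18, 0 of 23 and 0 of 17. Of 32 probes on the E protein network list, 7 were called lower (background 2.39%) and 1 higher (background 1.47%) in KO Foxp3+ cells. Cxcr5 was its only member gene, of 26 (3.85%).

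On the myeloid and dendritic list, 8 of 12 fitted probes were called lower in KO Foxp3+ cells (background 2.39%). The list's median log2 difference was -1.01. Of those 8 probes 5 were members, and the others were of Lyz1, Ly86 and Cd14. The rule chose the members on this same difference, so it set the count and the median in part, and they add no support. The dimmer Lyz1 probes, also no members, were not called. Cd74, the invariant chain of class II molecules that B cells carry as well, read 11.38 and 11.40 on WT Foxp3+ and 11.45 and 10.39 on KO Foxp3+ and was not called. The T cell, double-positive thymocyte, CD8, B cell, NK, NKT and gamma-delta, and erythroid lists had 0 members and 0 probes called by limma in KO against WT Foxp3+ cells. At an unadjusted p under 0.05, both erythroid probes and 1 NKT and gamma-delta probe were higher in KO, and 2 T cell, 1 double-positive and 1 CD8 probe were lower. The single epithelial marker with a probe was not detected.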

How the data were processed

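Labelled RNA was hybridised to Illumina bead arrays, 2 per group. The authors deposited an intensity per probe and array, not normalized, with a detection p-value beside each, and a processed table on the log2 scale for 14942 probes. Per the submitters' processing notes, GenomeStudio 2011.1 was used; its settings were not stated in those sources. Quantile normalization of the log2 intensities rebuilt the authors' processed values to within 0.0315 over all probes.

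Members were chosen on the authors' log2 values. Members and gene lists were chosen with earlier results of these data known, and roles were assigned after values were seen. From the intensities, levels were made with neqc in limma 3.58.1 under R 4.3.3 (offset 16, background from the detection p-values). A probe entered the fit if 2 or more arrays detected it at p under 0.05, which gave 13526 of 25697. One mean per group was estimated from the 8 arrays together in lmFit and eBayes (4 residual and 3.99 prior degrees of freedom, prior SD 0.13), and p-values were adjusted by Benjamini-Hochberg over all fitted probes. Every adjusted p is from limma, two-sided, and 2 against 2 arrays allow no exact permutation p below 0.333. The code was tested on simulated data. The number of arrays limits the precision.

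Gene symbols came from the platform annotation: 14017 processed probes had 1 symbol, 0 had several and 925 had none. Of the gene identifiers 14010 were found in RefSeq, and 0 symbols changed. The naming rule took the 15 members with the lowest B, the 8 with the highest D, members on a gene list, genes with 2 or more member probes, and probes beside each limit, with Tcf12 and Foxp3 as checks. Every other gene named was chosen after its values were seen. Same-numbered arrays did not deviate together (correlations from -0.03 to 0.10), so replicate numbers pair nothing. Letters at the end of the sample descriptions run in group order, so anything they mark and the groups cannot be told apart.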

Additional observations from a re-analysis of the deposited data

Results flagged for a closer look

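For 52 of the 69 members, KO minus WT was lower in Foxp3+ than in Foxp3- cells by a limma interaction test at an adjusted p under 0.05, where 3.53% of all fitted probes were. The median interaction was -1.85 on the log2 scale, from a median KO minus WT difference of -1.76 in Foxp3+ cells and 0.02 in Foxp3- cells. This difference between fractions drew attention because it is a test of the genotype effect in 2 cell populations. The rule had chosen the members on those same differences, so the count is a description and adds no support. Among the 17 without such a call were Tyrobp, Lgals3, Bcl3, Cst3 and Rabac1. No group held enough arrays to test for single outlying samples.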

How the results depend on the processing

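No member probe taken by the naming rule changed sign. Of 662 values of these 38 probes under alternatives, 620 kept their side of the threshold, 31 lost the call, 11 gained it and 0 reversed. Lost calls were counted for these probes only. Other members in the text have no such count, among them Clec4a3, Map3k8 and Ctsh, which were called close to the limit. The rule found 216 probes on background-corrected values, 59 of them members, 111 with limits 0.1 looser and 52 with limits 0.1 stricter. The cause was not tested. Requiring detection on all 8 arrays left 21 members in the fit, by construction: 16 were then called lower in KO Foxp3+ cells, 21 higher in WT Foxp3+ than WT Foxp3-, 15 higher in KO Foxp3+ than KO Foxp3-, and 14 with a negative interaction. Calls in Foxp3- cells moved from 9 to 4 without background correction, 4 on the authors' values and 14 with only the 4 arrays compared. Leaving out 1 array at a time gave 66 to 80 probes by the rule. For members it gave 43 to 64 called lower in KO Foxp3+ cells, 68 to 69 higher in WT Foxp3+, 39 to 47 higher in KO Foxp3+ than KO Foxp3-, and 37 to 57 with a negative interaction. For calls in Foxp3- cells it gave 3 to 12: 5 without replicate 1 and 3 without replicate 2 of WT Foxp3-, and the same numbers for KO Foxp3-. With the replicate number as a block, 59 members were called lower in KO Foxp3+ cells, 69 higher in WT Foxp3+, 11 in Foxp3- cells, 48 higher in KO Foxp3+ than KO Foxp3- and 50 with a negative interaction. The median KO difference between fractions, an alternative chosen after seeing the data, was 0.39 without background correction. The shares on the authors' values or without a KO Foxp3+ array, and marker sums without members, were also chosen after seeing the data. Signal over background limits 34 members that no Foxp3- array detected.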
